A study of Mus musculus with 22 samples.

Results

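The genes described here are the nuclear genes that encode the subunits of the mitochondrial oxidative phosphorylation system, measured by poly(A) RNA sequencing in cultured mouse mammary cells, in allografts grown from such cells, and in primary mammary cancers and their cultures. They were chosen by symbol alone: Nduf a, b, c, s and v genes with a number (complex I), Sdha to Sdhd (complex II), the Uqcr genes and Cyc1 (complex III), Cycs (cytochrome c), Cox4 to Cox8 genes (complex IV) and Atp5 genes (complex V). The rule found 86 genes among the 23993 symbols of the first table, namely 37 of complex I, 4 of complex II, 9 of complex III, 1 for cytochrome c, 18 of complex IV and 17 of complex V. The same 86 symbols were found among the 23490 of the second table. A symbol is not a role: Ndufa4 was first described in complex I and is now regarded as a complex IV subunit, Cox7a2l acts in respiratory supercomplexes, and Atp5sl is named for its likeness to Atp5s, so the grouping follows the name.

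Complexes I and II pass electrons from NADH and succinate to ubiquinone, complex III passes them on to cytochrome c, and complex IV hands them to oxygen. Complexes I, III and IV pump protons as they do so, and complex V uses the gradient to make ATP. Some complex IV subunits exist as pairs of isoforms, one in most tissues and the other in heart and skeletal muscle, lung or testis. A small set of core subunits is encoded by mitochondrial DNA and was not analysed here.

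All mice were nulliparous C57Bl/6 females, and every group carried a single Trp53 null allele (Trp53-/+) and MMTV-Cre, a Cre recombinase driven by the mouse mammary tumour virus promoter, which is active in mammary epithelium and some other cells. Brca1hom libraries carried Brca1fl11/fl11, conditional alleles at both copies of Brca1. CYP19A1 libraries carried Tet-op-CYP19A1 and MMTV-rtTA, a doxycycline-controlled human aromatase transgene, and whether it was induced is not given in the sources used here. Brca1het libraries carried Brca1fl11/WT, with 1 conditional allele. Cells were grown in a condition labelled CRC or in one labelled EpiC. CRC is a common abbreviation for conditionally reprogrammed cells, and the labels do not spell it out. The first table holds 16 libraries: 7 allografts of CRC cells (1 CYP19A1, 3 Brca1het, 3 Brca1hom), 3 allografts of EpiC cells (1 CYP19A1, 2 Brca1het), 3 CRC cultures and 3 EpiC cultures with 1 library per genotype in each medium. Cultures 1, 2 and 3 are CYP19A1, Brca1het and Brca1hom, and allografts are called by their label numbers. Allografts grew in mammary glands of NU (NCr)-Foxn1nu mice, athymic hosts that lack most T cells and keep macrophages, B cells and natural killer cells. The second table, normalised apart, holds 2 Brca1het cancers, each as a CRC culture, an EpiC culture and the primary tissue. The labels give these cancers the same number with different letters and do not say what the number stands for. The age of the mice is not given in the sources used here, and nothing states that libraries of a group came from separate mice, so the spread behind each p-value is that between these libraries and may be partly technical.

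The values are FPKM (fragments per kilobase of transcript, scaled to the number of fragments in the library) and no read counts were at hand, so the depth behind them is unknown. Markers did not follow the mammary epithelial label in every library. The 7 epithelial markers (Epcam, Cdh1 and 5 keratins) summed to 9642 to 15333 FPKM in CRC cultures, against 15.6 to 1804 FPKM in EpiC cultures, with EpiC culture 3 at 15.6. They summed to 43.9 to 905 FPKM in allografts. The 8 fibroblast markers ran the other way, at 29.5 to 55.8 FPKM in CRC cultures and 3372 to 6317 FPKM in EpiC cultures. In bulk RNA, fewer cells of a type and less RNA per cell cannot be told apart. EpiC allograft 5A and cancer CRC culture 2 stood apart from the other libraries for the genes described here, as given below, and the values without them stand beside the results they moved.

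The promoters of 5 genes that carry the differences below are printed so that their sequences can be compared. They run from 250 bases before to 50 bases after the RefSeq gene start in build GRCm38.p6, on the gene's strand from 5′ to 3′, and all 5 genes lie on the minus strand. Cox6b1 (complex IV, common isoform) is at chr7:30626065-30626364, Cox6b2 (complex IV, testis isoform) at chr7:4753045-4753344, Cox7c (complex IV) at chr13:86046746-86047045, Ndufb6 (complex I) at chr4:40279372-40279671 and Cycs (cytochrome c) at chr6:50566520-50566819. Capitals mark matches to the motifs named after them.
Cox6b1: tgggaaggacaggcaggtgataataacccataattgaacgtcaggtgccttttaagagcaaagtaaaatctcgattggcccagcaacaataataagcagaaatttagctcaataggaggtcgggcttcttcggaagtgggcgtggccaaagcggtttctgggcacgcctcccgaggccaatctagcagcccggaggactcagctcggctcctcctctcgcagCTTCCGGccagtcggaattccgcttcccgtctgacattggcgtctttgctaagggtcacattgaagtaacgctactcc
Cox6b2: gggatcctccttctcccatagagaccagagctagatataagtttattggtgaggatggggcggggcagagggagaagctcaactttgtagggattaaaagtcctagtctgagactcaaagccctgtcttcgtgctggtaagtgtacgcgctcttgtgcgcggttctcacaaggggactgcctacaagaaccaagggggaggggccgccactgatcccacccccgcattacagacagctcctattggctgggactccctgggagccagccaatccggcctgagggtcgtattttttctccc
Cox7c: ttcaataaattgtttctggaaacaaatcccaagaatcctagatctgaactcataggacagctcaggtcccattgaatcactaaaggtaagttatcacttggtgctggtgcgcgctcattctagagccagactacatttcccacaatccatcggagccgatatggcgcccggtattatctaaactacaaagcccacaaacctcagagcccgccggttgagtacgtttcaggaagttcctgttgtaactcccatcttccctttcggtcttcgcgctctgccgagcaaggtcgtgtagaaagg
Ndufb6: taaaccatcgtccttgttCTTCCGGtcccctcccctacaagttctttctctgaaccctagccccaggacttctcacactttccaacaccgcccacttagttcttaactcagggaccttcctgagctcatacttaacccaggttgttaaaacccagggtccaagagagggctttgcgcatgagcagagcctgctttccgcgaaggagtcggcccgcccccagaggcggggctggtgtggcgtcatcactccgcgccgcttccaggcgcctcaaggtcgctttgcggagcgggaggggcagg
Cycs: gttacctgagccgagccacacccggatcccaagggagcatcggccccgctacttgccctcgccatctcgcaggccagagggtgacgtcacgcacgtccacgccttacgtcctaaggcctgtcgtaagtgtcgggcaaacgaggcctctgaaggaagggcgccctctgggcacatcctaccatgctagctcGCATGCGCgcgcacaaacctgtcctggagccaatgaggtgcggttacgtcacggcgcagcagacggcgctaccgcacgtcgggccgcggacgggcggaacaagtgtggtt
The cores of factors known for respiratory genes were searched on both strands: GCGCATGC for NRF1, CCGGAAG for ETS factors such as GABPA, and AAGATGGC for YY1. The NRF1 core was present in 11 of the 67 promoters found for the 86 genes (16.4%), in 5.51% of promoters of genes that averaged 1 FPKM or more, and in 2.80% of all 27025 promoters. The ETS core was present in 15 of 67 (22.4%), against 18.3% of expressed and 9.12% of all genes. The YY1 core was present in 8 of 67 (11.9%), against 4.74% of expressed and 2.88% of all genes. The Cox6b1 and Ndufb6 promoters each held 1 ETS match and the Cycs promoter 1 NRF1 match. Cox6b2 and Cox7c held none of the 3 letter strings in this window. No printed promoter held more than 1 match, so none overlapped.

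The oxidative phosphorylation genes were among the most abundant transcripts of every library. Over the 16 libraries of the first table their median level was 132 FPKM, against 11.4 FPKM for the 12325 genes that averaged 1 FPKM or more. A mean of at least 50 FPKM was reached by 70 of the 86 (81.4%) and by 14.9% of the expressed genes. Together the 86 genes made up 2.45% to 3.39% of the FPKM sum of a library. Complex V had the highest median level (339 FPKM), ahead of complex IV (166), complex III (133), complex I (110) and complex II (104 FPKM), and the lone cytochrome c gene Cycs averaged 17.3 FPKM. The most abundant member of each was Cox4i1 (968 FPKM), which anchors complex IV assembly, Atp5k (947 FPKM), subunit e of ATP synthase, Ndufa4 (897 FPKM), the complex III hinge subunit Uqcrh (587 FPKM) and the iron-sulphur subunit Sdhb of complex II (158 FPKM). After the filter of a mean of 1 FPKM, 83 of the 86 entered the fits over the first table and 80 those over the second. Some symbols were read very differently in the separately normalised tables. Ndufs5 was at most 4.56 FPKM in the first table and at most 0.0003 FPKM in the 6 cultures there, and lay between 47.0 and 227 FPKM in the second. Many of these genes have processed pseudogenes, and how reads with several matches were counted is not given in the sources used here.

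**Figure D1:**
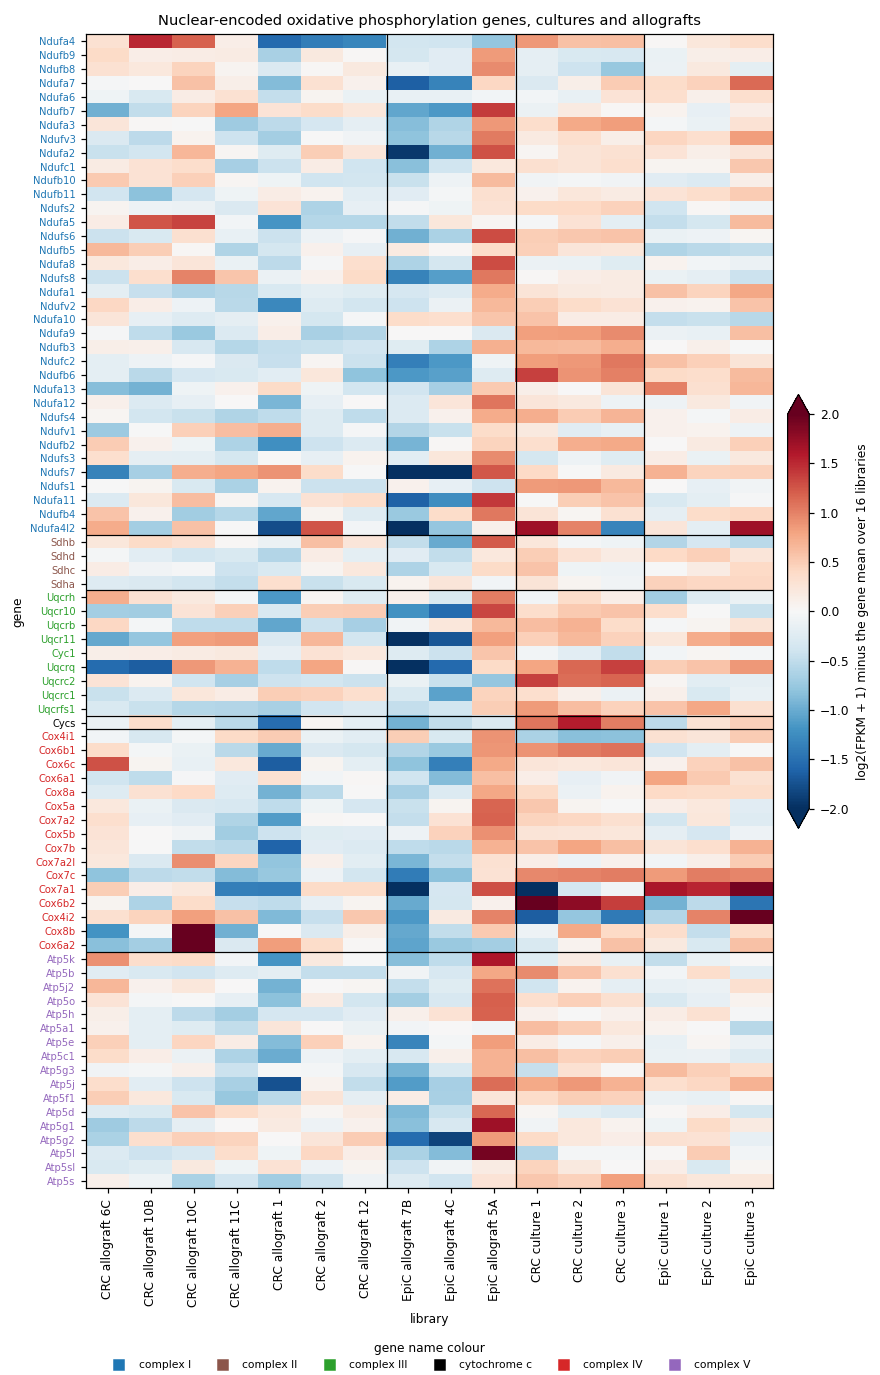
Heat map of 83 genes (rows, by complex and then by mean level) in the 16 libraries of the first table (columns), with colour giving log2(FPKM + 1) minus the gene's mean over the libraries. EpiC allograft 5A is the reddest column, with the highest value of the table for 38 of the 83 genes, and EpiC allograft 7B and CRC allograft 1 are the bluest, each with the lowest value for 25 genes. The counts cover the plotted genes only.

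One allograft carried much of the variation between libraries. EpiC allograft 5A had a median deviation of 0.70 on the log2 scale over the 83 genes, and its level was higher than that of EpiC allograft 4C, of the same genotype and medium, for 76 of 83, with a median ratio of 1.99. The median ratio over all 12325 genes was 1.01, with 6244 higher and 6023 lower in 5A. In 5A the deviation of all genes fell with transcript length (Spearman's rho -0.48 across 8467 genes, which are not independent). Many, but not all, oxidative phosphorylation genes have short transcripts. Lengths here are those of the longest annotated protein-coding transcript of each gene, which need not be the one expressed. By this measure the median length was 652 bases for complex IV, 896.5 for complex V, 934 for complex I, 1363 for complex III and 2065.5 for complex II. EpiC allograft 7B and CRC allograft 1 had median deviations of -0.53 and -0.42, with rho of 0.31 and 0.29. A fit adjusted for length and GC content was therefore run beside each comparison below.

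CRC cultures were compared with EpiC cultures of the same 3 genotypes, which asks how the medium goes with expression in culture. In CRC cultures 10 genes rose and 2 fell of the 83 tested, relative to EpiC cultures (limma, Benjamini-Hochberg adjusted p under 0.05). Of all 11837 genes tested, 23.2% were called, 11.4% as higher and 11.7% as lower, so the share of oxidative phosphorylation genes called was below that of genes at large. The higher genes came from every complex but complex II: Uqcrc2, a core protein of complex III; Cycs; Cox6b1 and Cox6b2 of complex IV; Ndufs1, the large iron-sulphur subunit of complex I, with Ndufb5, Ndufa10, Ndufb3 and Ndufs6; and Atp5c1, the gamma subunit of complex V. The lower genes were Cox4i1 and Cox7a1, both of complex IV. The median difference of the 83 genes was 0.10 on the log2 scale, against 0.04 for all genes, with complex III at 0.46 and complex IV at 0.00.

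Uqcrc2 was at 279, 234 and 242 FPKM in CRC cultures 1, 2 and 3, against 110.3, 93.3 and 94.97 FPKM in EpiC cultures 1, 2 and 3. Every CRC culture lay above every EpiC culture, and the log2 difference was 1.33 (SE 0.144, limma adjusted p = 0.0118). Cox6b1, which joins the monomers of the complex IV dimer, was at 1018, 1122 and 1154 FPKM in CRC cultures, against 420.0, 476 and 541 FPKM in EpiC cultures, without overlap (log2 difference 1.20, SE 0.151, limma adjusted p = 0.0146). Its testis isoform Cox6b2 was at 15.2, 10.3 and 7.48 FPKM in CRC cultures, against 0.699, 1.28 and 0.186 FPKM in EpiC cultures. The groups did not overlap, and the log2 difference of 2.80 (SE 0.253, limma adjusted p = 0.00905) was the largest rise. Cox6b2 made up 0.644% to 1.47% of the Cox6b1 and Cox6b2 total in CRC cultures and 0.0344% to 0.267% in EpiC cultures, so both isoforms were higher in CRC cultures while Cox6b1 remained the main one.

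Cox4i1 went the other way from Cox6b1 within the same complex. It was at 591, 509.6 and 515 FPKM in CRC cultures, against 1134, 1083 and 1303 FPKM in EpiC cultures (log2 difference -1.12, SE 0.166, limma adjusted p = 0.0196), and the groups did not overlap. Cox7a1, the heart and muscle isoform of subunit 7a, was at 0.189, 3.91 and 5.01 FPKM in CRC cultures, against 18.6, 17.04 and 22.6 FPKM in EpiC cultures (log2 difference -2.63, SE 0.496, limma adjusted p = 0.0306). Cox7a1 made up 0.0711% to 2.01% of the Cox7a1 and Cox7a2 total in CRC cultures and 6.92% to 12.2% in EpiC cultures. Cox4i2, the hypoxia-linked isoform of subunit 4 that is abundant in lung, was at 0, 0.835 and 0.183 FPKM in CRC cultures, against 1.10, 5.27 and 11.8 FPKM in EpiC cultures. Its ranges did not overlap, and it did not pass the test (log2 difference -2.09, SE 0.511, limma adjusted p = 0.0506).

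Of the other genes called, Cycs averaged 36.5 ± 8.19 FPKM in CRC cultures and 16.5 ± 5.77 FPKM in EpiC cultures (SD, n = 3 each), with a log2 difference of 1.14 and a limma adjusted p of 0.0424. Ndufs1 averaged 56.4 ± 4.66 FPKM in CRC cultures and 30.4 ± 1.88 FPKM in EpiC cultures (SD, n = 3 each), with a log2 difference of 0.87 and a limma adjusted p of 0.0280. Ndufb5 (0.86), Ndufa10 (0.78), Atp5c1 (0.69), Ndufb3 (0.63) and Ndufs6 (0.61) followed, with limma adjusted p-values of 0.0294 to 0.0491. The other 71 genes did not pass.

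**Figure D2:**
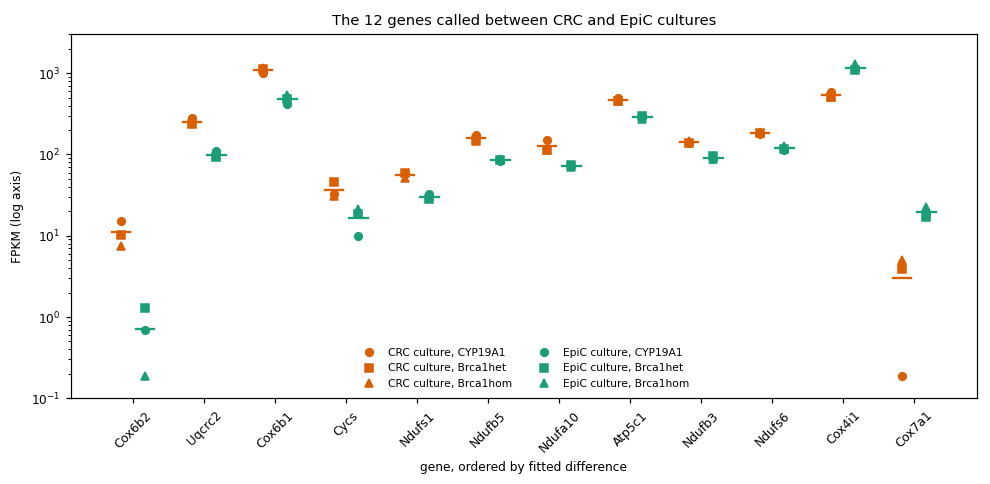
FPKM (log axis) of the 12 genes called between CRC cultures (orange, left of each pair) and EpiC cultures (green, right), with 1 symbol per genotype and the mean of 3 libraries as a bar. The 3 CRC cultures lie above the 3 EpiC cultures for the 10 genes from Cox6b2 to Ndufs6 and below them for Cox4i1 and Cox7a1.

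The fit for the cultures had only 2 residual degrees of freedom, and its calls changed when single libraries were left out. With genotype in the model, leaving out a library also took its genotype out of the medium comparison and lowered the degrees of freedom. The counts that follow cannot tell the weight of a library from this loss. The count was 0 without CRC culture 2 or EpiC culture 2, 2 without CRC culture 1 or EpiC culture 1, 10 without CRC culture 3 and 8 (7 higher, 1 lower) without EpiC culture 3, the library with the lowest epithelial marker sum. Adjusting each library for transcript length and GC content gave 14 calls, 8 higher and 6 lower, of which 9 were among the 12, with a median difference of -0.09 over the genes. Cycs, Ndufb3 and Ndufs6 were the calls lost under that adjustment. The fibroblast and epithelial marker sums given above moved with the medium, 7 of the 8 fibroblast markers being called lower in CRC cultures, and their part in these differences was not tested.

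Allografts of both media were then compared with cultures of both media, which asks how levels differ between cells in a host and cells in a dish. In allografts 17 of the 83 genes fell and none rose. Of all 12325 genes tested, 34.5% were called, 18.2% higher and 16.4% lower, so the lower share (17 of 83) was near that of all genes and the higher share was 0. At an unadjusted p under 0.05, 29 of the 83 were called in limma, where 45% of all genes were. The median difference was -0.36 over the 83 genes, against 0.01 over all genes. The medians were -0.52 for complex III, -0.48 for complex I, -0.39 for complex IV, -0.29 for complex II and -0.24 for complex V, so each complex lay on the same side. The lower genes were Ndufb6, Ndufc2, Ndufa9, Ndufb2, Ndufs1, Ndufb3 and Ndufa1 of complex I, Sdhd of complex II, Uqcrq, Uqcr11, Uqcrc2 and Uqcrfs1 of complex III, Cycs, Cox7c and Cox7b of complex IV, and Atp5j and Atp5s of complex V.

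Cox7c, a small structural subunit of complex IV, had the smallest adjusted p of these. It was at 40.2, 68.6 and 132 FPKM in the lowest, median and highest of the 10 allografts, against 195, 214 and 220.3 FPKM in the lowest, median and highest of the 6 cultures. No allograft reached the lowest culture, and the log2 difference was -1.61 (SE 0.205, limma adjusted p = 4.34e-05). Ndufb6, an accessory subunit of the complex I membrane arm, was at 34.0, 61.4 and 89.9 FPKM in the lowest, median and highest allograft, against 98.1, 132 and 199.9 FPKM in the cultures. Its ranges did not overlap either (log2 difference -1.34, SE 0.194, limma adjusted p = 0.000134). Ndufc2, which is needed for the assembly of the complex I membrane arm, was at 31.2, 69.4 and 84.4 FPKM in the lowest, median and highest allograft, against 98.0, 136 and 171 FPKM in the cultures. It too had no overlap (log2 difference -1.24, SE 0.188, limma adjusted p = 0.000198).

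Other called genes overlapped between the groups. Uqcrq, the ubiquinone-binding accessory subunit of complex III, had the largest fall (log2 difference -1.69, SE 0.429, limma adjusted p = 0.00755), with allografts between 14.0 and 186 FPKM, against 143 to 263 FPKM in cultures. Within the allografts Uqcrq and Uqcr11, both small complex III subunits, spread widely: 6C, 7B, 10B and 4C had 34.4, 14.0, 31.8 and 33.8 FPKM of Uqcrq, and 10C, 11C and 2 had 186, 165 and 176 FPKM. CRC allografts 1 and 12 and EpiC allograft 5A lay between, at 71.3, 103 and 133 FPKM. Uqcr11 was at 64.0, 23.6, 76.3 and 39.2 FPKM in 6C, 7B, 10B and 4C, and at 233, 237 and 209 FPKM in 10C, 11C and 2. It was at 106, 101 and 231 FPKM in 1, 12 and 5A. Cycs averaged 11.8 ± 4.15 FPKM in allografts (SD, n = 10) and 26.5 ± 12.6 FPKM in cultures (SD, n = 6), with a log2 difference of -1.25 (SE 0.270, limma adjusted p = 0.00275). Cox4i1 was the gene with the highest difference, 0.48, and did not pass (limma adjusted p = 0.111).

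The count of 17 was 33 without EpiC allograft 5A, all lower, and 11 without EpiC allograft 7B. It was 9, 10 and 11 without CRC cultures 1, 2 and 3, and 14 without EpiC culture 3, again all lower. The fit adjusted for length and GC called 21 genes, all lower, of which 14 were among the 17, where it called 40.3% of all genes. Markers of host cells moved with the same contrast: all 10 macrophage markers and all 7 endothelial markers were called higher in allografts. The macrophage markers summed to 4372 to 13914 FPKM in allografts, against 7.46 to 55.4 FPKM in cultures, and 5 of the 7 epithelial markers were called lower. Their part in the differences was not tested.

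The comparison was also made within each medium. In CRC allografts, relative to CRC cultures, 2 genes rose and 21 fell, where 39.6% of all genes were called (21.2% higher, 18.4% lower). In EpiC allografts, relative to EpiC cultures, 1 rose and 4 fell, where 14.2% of all genes were called (7.94% higher, 6.26% lower). These comparisons come from one fit over all libraries of the first table, with shared genotype terms and a shared residual variance. They are therefore not independent of each other, although the groups set against each other differ. CRC and EpiC cultures also served in the comparison of media above. The median differences of the 83 genes were -0.39 in CRC and -0.29 in EpiC, against 0.04 and 0.01 over all genes.

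Cox7c, Ndufb6 and Ndufc2 fell in both. Cox7c differed by -1.63 in CRC (limma adjusted p = 0.000330) and by -1.58 in EpiC (limma adjusted p = 0.00545). Ndufb6 differed by -1.40 in CRC (limma adjusted p = 0.000664) and by -1.25 in EpiC (limma adjusted p = 0.0152). Ndufc2 differed by -1.15 in CRC (limma adjusted p = 0.00204) and by -1.36 in EpiC (limma adjusted p = 0.00739). For these 3 genes every allograft lay below every culture of its medium, and EpiC allograft 5A was the nearest to the EpiC cultures.

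In CRC the largest falls other than that of Cox7c included Cox6b2 (-1.99), Cycs (-1.58), Uqcrq (-1.51), Uqcrc2 (-1.41) and Cox6b1 (-1.29), with limma adjusted p-values of 5.54e-05 to 0.0480. Cox6b2 was at 1.13, 1.93 and 3.19 FPKM in the lowest, median and highest of the 7 CRC allografts, against 15.2, 10.3 and 7.48 FPKM in CRC cultures 1, 2 and 3. The genes that rose in CRC allografts were Cox4i1 (0.79, SE 0.275, limma adjusted p = 0.0342) and Cox4i2 (1.30, SE 0.449, limma adjusted p = 0.0330). Cox4i1 was at 728, 883 and 1302 FPKM in the lowest, median and highest CRC allograft, above the 591, 509.6 and 515 FPKM of the CRC cultures. In EpiC alone Ndufa7, a complex I accessory subunit, fell by 1.55 (SE 0.460, limma adjusted p = 0.0386) and Ndufa10 rose by 0.91 (SE 0.211, limma adjusted p = 0.0110). Ndufa10 was at 132, 129 and 150.2 FPKM in EpiC allografts 7B, 4C and 5A, against 73.1, 74.3 and 69.2 FPKM in EpiC cultures.

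The difference between the media was tested by an interaction, whose sign is that of the CRC change minus the EpiC change. It was called for 4 of the 83 genes, where 12.2% of all genes were called (6.35% positive, 5.87% negative). These were Cox6b2 (-2.42, SE 0.477, limma adjusted p = 0.00459), Ndufa10 (-1.26, SE 0.275, limma adjusted p = 0.00869), Uqcrc2 (-1.07, SE 0.298, limma adjusted p = 0.0321) and Cox4i2 (2.28, SE 0.704, limma adjusted p = 0.0497). Uqcrc2 was at 67.8, 81.1 and 131 FPKM in the lowest, median and highest CRC allograft and at 98.6, 78.5 and 62.4 FPKM in EpiC allografts 7B, 4C and 5A, so the allografts overlapped where the cultures had not. Cox4i2 was at 0.716, 3.30 and 4.58 FPKM in the lowest, median and highest CRC allograft and at 0.428, 2.59 and 5.27 FPKM in the EpiC allografts, which also overlapped.

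**Figure D3:**
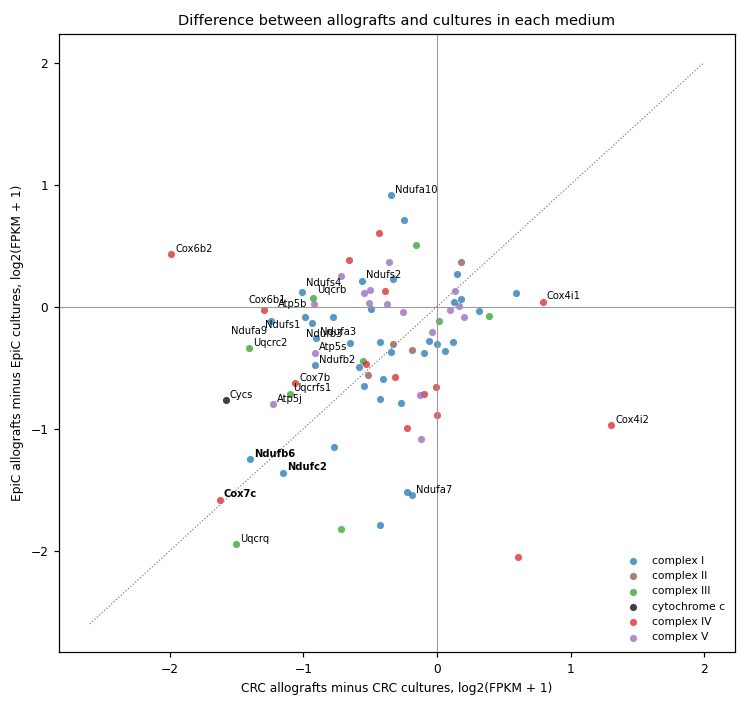
Log2(FPKM + 1) difference between allografts and cultures for 83 genes in CRC (horizontal axis) and in EpiC (vertical axis), coloured by complex, with the line of equal change dotted. Genes called in either medium are named, and Cox7c, Ndufb6 and Ndufc2, in bold, are called in both. Cox6b2 and Uqcrc2 lie above the line of equal change and Cox4i2 below it.

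The counts within a medium depended on a few libraries. In CRC the count of 23 was 14 without CRC culture 1 or CRC culture 2 and 11 without CRC culture 3, all lower. In EpiC the count of 5 was 20 (1 higher, 19 lower) without EpiC allograft 5A, 3 without EpiC culture 1 or EpiC culture 2, and 2 without EpiC allograft 7B, and the median difference was -0.60 without 5A. The interaction count of 4 was 14 (9 higher, 5 lower) without 5A, 7 without CRC allograft 6C, 6 without CRC allograft 1, and 2 without CRC culture 2, CRC culture 3, EpiC culture 2, EpiC allograft 4C or CRC allografts 10C, 11C and 12. With length and GC adjusted, the counts were 30 in CRC (3 higher, 27 lower), 11 in EpiC (1 higher, 10 lower) and 8 for the interaction, and they held 21 of the 23, all 5 and all 4 of the calls above.

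Genes that serve the same system were counted from lists chosen by function. Of 16 tricarboxylic acid cycle genes, which feed NADH and succinate to the chain, 7 fell in allografts relative to cultures and none rose, with a median difference of -0.42, where 16.4% of all genes fell and 18.2% rose. They included Pdha1 (-1.11), the pyruvate dehydrogenase E1 subunit, Cs (-0.96), citrate synthase, and Sucla2 (-0.95), a subunit of succinyl-CoA ligase. Of 41 assembly factors tested, 7 fell and 2 rose in allografts, a lower share near that of all genes. The largest falls were in the copper chaperones Cox17 (-2.17) and Coa6 (-1.72) and in Nubpl (-1.29), a complex I iron-sulphur cluster factor. In CRC cultures 4 assembly factors rose, with Nubpl at 1.73, and 1 fell, Cox14 (-0.64), relative to EpiC cultures, where 11.4% of all genes rose and 11.7% fell.

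Of 12 genes for related subunits, carriers and inhibitors, 4 fell in allografts relative to cultures, among them Ndufab1 (-0.73, limma adjusted p = 0.0233), the acyl carrier protein bound to complex I. Of the 11 regulators of mitochondrial biogenesis tested, 3 fell and 2 rose. Esrra, a nuclear receptor that acts with PGC-1 coactivators, fell by 1.67 (SE 0.370, limma adjusted p = 0.00319). Gabpa, the ETS factor of respiratory promoters, fell by 0.65 (SE 0.238, limma adjusted p = 0.0473), and Tfam, which packages and transcribes mitochondrial DNA, fell by 0.51 (SE 0.165, limma adjusted p = 0.0278). Nrf1, the factor whose core motif was searched above, rose by 0.48 (SE 0.115, limma adjusted p = 0.00513). None of the 11 was called between CRC and EpiC cultures by limma. Shares of all genes were those given for the lists above, with medians of 0.01 for allografts against cultures and 0.04 for the cultures. Among cytosolic ribosomal protein genes, which are also short and abundant transcripts, 27 of 82 fell in allografts with a median of -0.60, and 10 of 82 rose in CRC cultures relative to EpiC cultures with a median of 0.35. Among mitochondrial ribosomal protein genes 7 of 77 rose and 6 fell in allografts, with a median of 0.05, and 6 rose and 3 fell in CRC cultures.

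Between CRC and EpiC allografts no oxidative phosphorylation gene of the 84 tested was called by limma, where 0.00833% of all genes (1 of 11999) were. At an unadjusted p under 0.05 there were 3, where 8.43% of all genes passed: Ndufa4 (1.27, SE 0.375, adjusted p = 0.421), Ndufc2 (0.69, SE 0.307, adjusted p = 0.591) and Atp5h (-0.84, SE 0.337, adjusted p = 0.541). The median difference was 0.05, and 0.46 without EpiC allograft 5A.

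Genotype was compared among the CRC allografts. Between Brca1hom and Brca1het CRC allografts 0 of 84 genes were called by limma, where 0% of all 11928 genes were, and 4 had an unadjusted p under 0.05, where 10.4% of all genes did. Ndufa4 was at 257, 289 and 305 FPKM in Brca1hom allografts 1, 2 and 12, against 2155, 1707 and 826 FPKM in Brca1het allografts 10B, 10C and 11C. The groups did not overlap, and the log2 difference was -2.35 (SE 0.374, adjusted p = 0.243). Ndufa5, a subunit of the complex I matrix arm, was at 52.7, 81.6 and 81.5 FPKM in Brca1hom allografts, against 292, 309.7 and 116 FPKM in Brca1het allografts, also without overlap (log2 difference -1.62, SE 0.416, adjusted p = 0.333). The others were Cox4i2 (-0.89) and Ndufb10 (-0.55). The lower Ndufa4 level of Brca1hom was not seen in the cultures. Brca1hom and Brca1het had 1146 and 1131 FPKM of Ndufa4 in CRC cultures, and 968 and 882 FPKM in EpiC cultures. Brca1het EpiC allografts 4C and 5A had 573 and 442 FPKM of Ndufa4. For Ndufa5, Brca1hom and Brca1het had 105 and 148 FPKM in CRC cultures, and 189 and 94.7 FPKM in EpiC cultures.

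CYP19A1 libraries were compared with Brca1het libraries across cultures and allografts, with medium and state in the fit. No gene of 83 was called by limma, where 0.00811% of all genes were, and 4 had an unadjusted p under 0.05, where 6.56% of all genes did: Cox4i2 (-1.18), Uqcrq (-1.13), Uqcr11 (-1.08) and Uqcrc2 (0.41), each with an adjusted p of 0.731. The median difference was -0.17, against -0.01 over all genes, and it rested on the EpiC allografts: it was -0.0062 without 5A and 0.036 without 7B. It was -0.32 without CRC allograft 6C and 0.022 with length and GC adjusted. Without 5A the differences of these 4 genes were -1.06, -0.84, -0.74 and 0.37.

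Ndufa4 and Ndufa5 both lie on chromosome 6, and their levels were highest in the same libraries, CRC allografts 10B and 10C. The labels give these 2 allografts the same number with different letters and do not say what the number stands for. In the gene order of build GRCm38, 22 expressed genes lie between Ndufa4 and Ndufa5, and for 9 of them (40.9%) 10B and 10C were the highest 2 of the 10 allografts. This was so for 29 of 531 genes elsewhere on chromosome 6 (5.46%), for 3.28% of all 11999 genes tested, and for 3 of the 84 oxidative phosphorylation genes, namely Ndufa4, Ndufa5 and Ndufc1. The stretch was singled out after its values were seen, so the shares are a description without a test. In the same stretch Capza2, an actin-capping protein gene, was at 2398 and 1596 FPKM in 10B and 10C, and also at 2292 FPKM in CRC allograft 12 and 1641 FPKM in EpiC allograft 5A, against 137 to 259 FPKM in the other 6 allografts. Ndufa4 and Ndufa5 were not high in 12 or 5A.

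**Figure D4:**
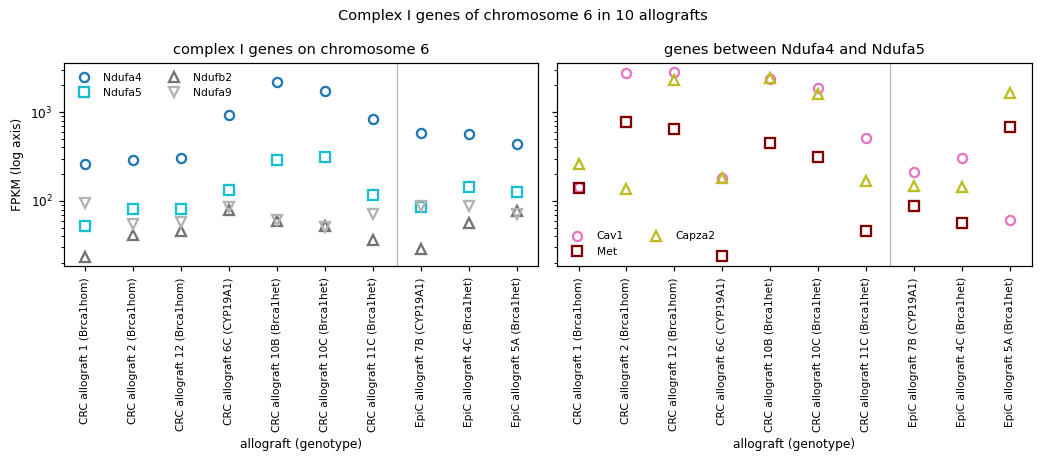
FPKM (log axis) in the 10 allografts, CRC allografts left of the vertical line and EpiC allografts right of it, with genotypes in brackets. Left panel: 4 complex I genes of chromosome 6, where Ndufa4 and Ndufa5 are highest in CRC allografts 10B and 10C. Right panel: Cav1, Met and Capza2, which lie between Ndufa4 and Ndufa5 in the gene order. For none of these are 10B and 10C the highest pair of allografts.

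The other tissue isoforms were minor in the cultures and allografts. Cox6a2 and Cox8b, the heart and skeletal muscle isoforms of subunits 6a and 8, were highest in CRC allograft 10C, at 9.45 and 8.53 FPKM, which was 1.94% and 1.63% of their isoform totals. The 15 skeletal muscle markers summed to 795 FPKM in 10C, against 22.6 to 251 FPKM in the other CRC allografts, and their part in these values was not tested. Ndufa4l2, the hypoxia-induced relative of Ndufa4, was at most 5.91% of the Ndufa4 and Ndufa4l2 total. Of the genes for the c subunit of complex V, which encode the same mature protein, Atp5g3 made up the largest share, 52.6% to 73.8% in the libraries of the first table.

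The second table asks how the same genes compare between cultures of 2 Brca1het cancers and the cancers themselves. No gene of the 80 tested was called by limma in any of the comparisons, where 0.889% of all genes were called between cancer CRC cultures and primary cancers, 0.677% between cancer EpiC cultures and primary cancers, and 0.00815% between cancer CRC and cancer EpiC cultures. At an unadjusted p under 0.05, limma gave 5, 1 and 0 of the 80 genes in these comparisons, where 7.02%, 6.8% and 1.63% of all genes passed. Each group had 2 libraries and the fit 3 residual degrees of freedom, so a missed threshold does not show that levels were alike. The median differences were 1.16 for cancer CRC cultures against primary cancers, 0.29 for cancer EpiC cultures against primary cancers and 0.86 for cancer CRC against cancer EpiC cultures, while the medians of all genes were -0.06, 0.08 and -0.08. The median for cancer EpiC cultures against primary cancers was -0.028 without primary cancer 2 and 0.64 without primary cancer 1. Without cancer EpiC culture 2 it was 0.17.

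Markers of other cells moved with the comparisons against primary cancers. The 10 macrophage markers summed to 9.30 and 13.004 FPKM in cancer CRC cultures, 14.0 and 36.8 FPKM in cancer EpiC cultures, and 1129.7 and 1659 FPKM in primary cancers. By limma 8 of the 10 were lower in cancer CRC cultures and 7 in cancer EpiC cultures, relative to primary cancers. Of the 5 endothelial markers tested, 2 were lower in cancer CRC cultures and 1 in cancer EpiC cultures, and of the 8 fibroblast markers 0 and 1 were. The fibroblast markers summed to at most 23.3 FPKM in cancer CRC cultures, 6.19 FPKM in cancer EpiC cultures and 283 FPKM in primary cancers. Their part in the differences was not tested.

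The medians for cancer CRC cultures rested on cancer CRC culture 2. This library had the highest value of its table for 74 of the 80 genes and gave 4.87% of its FPKM sum to the 86 genes, against 1.99% to 2.98% in the other libraries. Over all 12266 genes, it was higher than cancer CRC culture 1 for 4508 and lower for 7625. Its FPKM sum was 1615930, against 607519 to 710511 in the others. Without it the medians were 0.33 for cancer CRC cultures against primary cancers and 0.09 for cancer CRC against cancer EpiC cultures. Without cancer CRC culture 1 they were 1.996 and 1.843, and 2 genes were called higher against primary cancers.

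Within that library the difference was larger for genes with short transcripts. Relative to cancer CRC culture 1, all 40 genes with transcripts of at most 918 bases were higher in culture 2, with a median ratio of 3.69, and 35 of the 39 longer ones were, with a median ratio of 2.31. Atp5e, the epsilon subunit of ATP synthase and a very short transcript, was at 7688 FPKM in culture 2 and 641 FPKM in culture 1. Ndufs1 was at 17.4 FPKM in culture 2 and 49.9 FPKM in culture 1, and Sdha, the flavoprotein subunit of complex II, at 48.3 and 87.9 FPKM. They were among the 4 longer ones that were lower in culture 2. The longest, Atp5g1 (4715 bases) and Ndufb2 (4371 bases), were higher there, at 666 and 682 FPKM, against 172 and 119.9 FPKM in culture 1. The median ratio over all genes was 0.75. Adjusting for length and GC moved the median difference to 0.64 for cancer CRC cultures against primary cancers, to 0.42 for cancer EpiC cultures against primary cancers and to 0.19 for cancer CRC against cancer EpiC cultures. Rescaling by median ratios gave 1.20 for cancer CRC cultures against primary cancers, 0.18 for cancer EpiC cultures against primary cancers and 1.00 for cancer CRC against cancer EpiC cultures.

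Cox4i1 was higher in each of the 4 cancer cultures than in either primary cancer. It was at 1035 and 3514 FPKM in cancer CRC cultures 1 and 2, 894 and 1023 FPKM in cancer EpiC cultures 1 and 2, and 754 and 557 FPKM in primary cancers 1 and 2. It was not called (limma adjusted p = 0.786 for cancer CRC cultures against primary cancers). The pattern was not particular to Cox4i1: Atp5b, Cyc1 and Uqcrc1 were among other genes with it, and Cox6a1 was among those without it. Uqcrc2 was at 103 and 72.8 FPKM in cancer CRC cultures, 134 and 139 FPKM in cancer EpiC cultures, and 79.0 and 67.8 FPKM in primary cancers, so both EpiC cultures were above every other library. Ndufa4 was at 1282 and 4140 FPKM in cancer CRC cultures, 944 and 1253 FPKM in cancer EpiC cultures, and 1150 and 275 FPKM in primary cancers. Primary cancer 2 had the lowest value for 59 of the 80 genes. Relative to primary cancer 1 it was lower for 67 of the 79 genes with a transcript length, with a median ratio of 0.65. Genes at large leaned the same way: 7223 were lower in primary cancer 2 and 4935 higher, with a median ratio of 0.87. Cox6b2, which separated CRC from EpiC cultures in the first table, was at 0 and 1.99 FPKM in cancer CRC cultures, 0 and 1.83 FPKM in cancer EpiC cultures, and 1.20 and 0.812 FPKM in primary cancers. These low values overlapped between the media, and Cox6b2 was not tested here because its mean of 0.973 FPKM was under the filter. Cox7a1 was at 11.6 and 51.1 FPKM in cancer CRC cultures, 17.9 and 12.8 FPKM in cancer EpiC cultures, and 37.0 and 2.81 FPKM in primary cancers, where it made up 23.1% and 1.85% of the Cox7a1 and Cox7a2 total.

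**Figure D5:**
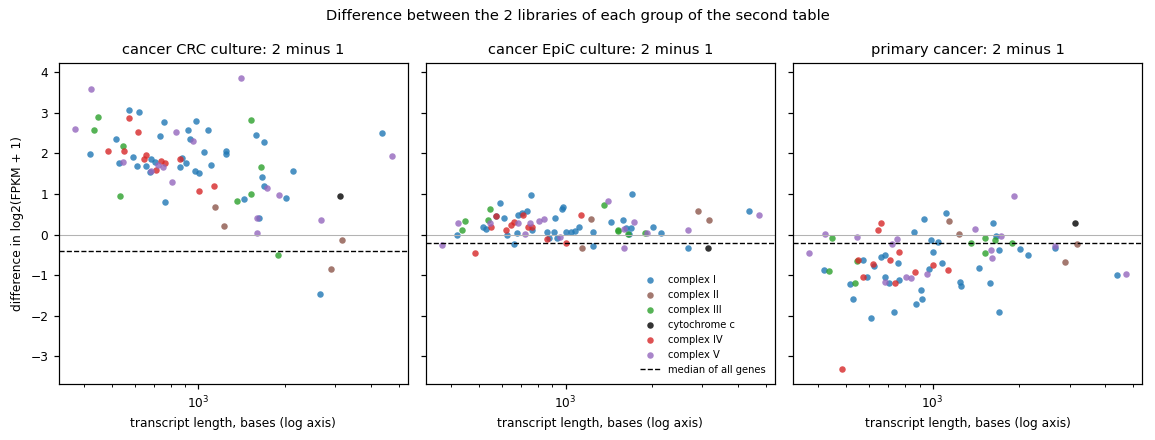
Difference in log2(FPKM + 1) between library 2 and library 1 of each group of the second table (vertical axis) against transcript length in bases (log axis), with 1 point per gene coloured by complex and the median of all genes dashed. In cancer CRC cultures the points reach 3.87 with the dashed line at -0.42, and the medians of the plotted genes are 1.77 in cancer CRC cultures, 0.18 in cancer EpiC cultures and -0.63 in primary cancers.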

How the data were processed

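Libraries were made from poly(A) RNA with a TruSeq kit and sequenced as paired ends on a HiSeq instrument, per the labels' protocols. FastQC, Trim Galore, TopHat, Cufflinks and build mm9 are named in the submitters' processing notes, without versions. The authors deposited FPKM values in 2 tables normalised apart, with 16 and 6 libraries, so tests were made only within a table. The genes and lists were chosen with earlier results of these data known.

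Each comparison was fitted with limma 3.58.1 in R 4.3.3 (empirical Bayes with a trend) on log2(FPKM + 1), over every gene that averaged 1 FPKM or more in its libraries, with Benjamini-Hochberg adjustment over all of them and a threshold of 0.05. A difference on this scale understates the change of low genes. Genotype was a covariate in the first table, except between Brca1hom and Brca1het CRC allografts. Genes named are the called ones with the largest differences (up to 6 a direction), those with the smallest p where fewer than 4 were called, the most abundant of each complex, and the isoform families. The alternatives tried were rescaling by median ratios, a filter at 5 FPKM or none, a pseudocount of 0.1, no genotype, a replicate block, leaving out each library and, chosen after seeing the data, adjustment of each library for transcript length and GC by splines of 4 degrees of freedom each. Lengths, GC and gene order came from GRCm38 annotation and promoters from RefSeq GRCm38.p6, used for sequence and not for the authors' coordinates. Length and GC are those of the longest protein-coding transcript of each symbol. It need not be the transcript expressed or the one behind the FPKM value, and the adjustment for length and GC rests on it. In the second table library numbers pair cultures with the primary cancer of the same number, since titles carry the same cancer's name, and the correlations of same-numbered deviations were -0.0555, -0.113 and 0.242. The fits were tested on simulated data.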

Additional observations from a re-analysis of the deposited data

Results flagged for a closer look

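Among the 7 CRC allografts, 5 of the 83 genes tested had a library far from the others. The measure was the gap between it and its neighbour relative to the whole range. Chance flags about 1 in 20, so the count was near that expected by chance. Cox6a2 was at 9.45 FPKM in CRC allograft 10C, with the next library at 2.89. Cox8b was at 8.53 FPKM in the same allograft, with the next at 1.48. Cox6c was at 1253 FPKM in CRC allograft 6C, the only CYP19A1 library of the 7, with the next at 596. In CRC allograft 1, Cyc1 was the lowest at 116.8 FPKM, with the next at 143, and Sdha was the highest at 83.3 FPKM, with the next at 54.9.

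The difference between allografts and cultures itself differed between CRC and EpiC, by the interaction test in limma, for Cox6b2 (-2.42, adjusted p = 0.00459), Ndufa10 (-1.26, adjusted p = 0.00869), Uqcrc2 (-1.07, adjusted p = 0.0321) and Cox4i2 (2.28, adjusted p = 0.0497). The Cox4i2 values were at most 11.8 FPKM.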

How the results depend on the processing

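For CRC against EpiC cultures the count of 12 was 5 with no filter and 21 with no genotype in the model, and 0 to 10 when a library was left out. The count for allografts against cultures (17) was 9 to 33, for CRC (23) 11 to 29, for EpiC (5) 2 to 20 and for the interaction (4) 2 to 14 when a library was left out. With length and GC adjusted, EpiC gave 11 and the interaction 8. The interaction gave 2 with a filter at 5 FPKM, which removed Cox6b2 (mean 3.35 FPKM) and Cox4i2 (mean 2.97 FPKM) before the fit. Counts of 0 stayed 0 under every alternative run, apart from cancer CRC cultures against primary cancers (0 to 2 when a library was left out). With the replicate block that pairs libraries of the same cancer, 0 genes were called in each comparison of the second table, as without it. Where any other count moved, the cause was not tested.

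The median difference between CRC and EpiC cultures moved to -0.09 with length and GC adjusted.

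Of 1104 alternative values for 67 named gene results, 984 kept direction and side of the threshold, 111 kept direction only and 9 changed sign, none of them called. For cancer CRC cultures against primary cancers, Atp5s was 0.035 when rescaled by median ratios and -0.20 to 0.18 when a library was left out, Ndufs1 was 0.058 with length and GC adjusted and -0.84 to 0.62 when a library was left out, and Ndufa4l2 was -2.04 to 0.31. For cancer CRC against cancer EpiC cultures, Ndufs1 was -1.35 to 0.12 and Sdha -0.78 to 0.070. Depth is unknown, so no counting error can be given.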
